A study of Mus musculus with 2 samples.

Results

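The 3 miR-199 genes, Mir199b, Mir199a-2 and Mir199a-1, and their partner Mir214 were followed in the microRNA pool of embryonic mouse lung. They were chosen by name, as the genes that the GENCODE annotation calls by these symbols, and make up 4 of the 1973 microRNA genes in the deposited tables. The material was whole lung of healthy B6NCrl embryos of both sexes at embryonic day 15.5, sequenced as total RNA with inserts under 30 nt. The 2 libraries form 1 group, embryonic lung, in which replicate 1 pooled 78 embryos and replicate 2 pooled 62. They share 1 donor identifier, which cannot name a single animal, since each library pools many embryos. Their spread is that between 2 pools under this identifier, and there is no second condition to compare with. The labels name no transgene, mutation or treatment. Reads counted on the annotated strand came to 5354530 in replicate 1 and 6489390 in replicate 2, so that a single count was worth 0.187 and 0.154 CPM (counts per 1000000 counted reads of the library).

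These microRNAs are known from mesenchyme, the connective tissue and muscle precursors that surround developing epithelium. In mice Mir199a-2 and Mir214 are cut from 1 long noncoding RNA, Dnm3os, which is transcribed against the dynamin gene Dnm3 and responds to the mesenchymal transcription factor Twist1, and mice that lack Dnm3os have growth and skeletal defects. In human lung fibroblasts miR-199a-5p represses caveolin, and miR-214 is likewise studied in fibrosis. A precursor hairpin yields a 5p and a 3p arm, and bases 2 to 8 of an arm, the seed, largely decide which messenger RNAs it binds.

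The mature arms are shown because they decide which reads can be told apart. All 4 genes matched the RefSeq table (build GRCm38.p6, the assembly that mm10 denotes), and the capitals mark the seed, 5′ to 3′.

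miR-214-5p: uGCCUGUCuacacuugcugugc

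miR-214-3p: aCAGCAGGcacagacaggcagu

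miR-199a-5p, from Mir199a-2 and Mir199a-1: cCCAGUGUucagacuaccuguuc

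miR-199a-3p, from Mir199a-2 and Mir199a-1: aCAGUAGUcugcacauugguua

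miR-199b-3p, from Mir199b: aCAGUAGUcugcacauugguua

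The 3p arm was the same 22 bases in all 3 miR-199 genes, and the 5p arm the same 23 bases in Mir199a-2 and Mir199a-1. Laid on miR-199a-5p without gaps, the hairpin of Mir199b differed at a single base, C10U, with positions counted from 1 at the 5′ end of miR-199a-5p and the Mir199b base given last. The differing base is the capital in this stretch of Mir199b.

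Mir199b, stretch aligned with miR-199a-5p: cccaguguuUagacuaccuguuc

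The change lies outside the seed, so this stretch carries the seed CCAGUGU of miR-199a-5p. By seed, the 4 genes hold 4 groups, GCCUGUC and CAGCAGG for the arms of Mir214, CCAGUGU for miR-199a-5p and CAGUAGU for the 3p arms of the miR-199 genes. Among the other mature microRNAs of the RefSeq table a single one shared a seed with any of them. It was miR-761, which has the seed of miR-214-3p, and its gene Mir761 had 0 counts in both libraries, which allows up to 0.560 CPM in replicate 1 and 0.462 CPM in replicate 2, the worth of 3 counts.

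miR-761: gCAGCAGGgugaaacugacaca

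Beyond the arms, the hairpins part within a few bases. They are shown with the listed arms in capitals, each on the strand of its gene.

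Mir214, chr1:162223368-162223477, plus strand: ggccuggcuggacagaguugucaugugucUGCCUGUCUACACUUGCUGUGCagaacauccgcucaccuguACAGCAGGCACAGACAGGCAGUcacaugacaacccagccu

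Mir199b, chr2:32318460-32318569, plus strand: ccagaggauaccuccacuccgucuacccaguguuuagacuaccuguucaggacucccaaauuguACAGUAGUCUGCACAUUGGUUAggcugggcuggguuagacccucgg

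Mir199a-2, chr1:162217814-162217923, plus strand: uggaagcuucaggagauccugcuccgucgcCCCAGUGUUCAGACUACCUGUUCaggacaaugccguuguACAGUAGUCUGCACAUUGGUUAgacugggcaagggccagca

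Mir199a-1, chr9:21496495-21496564, minus strand: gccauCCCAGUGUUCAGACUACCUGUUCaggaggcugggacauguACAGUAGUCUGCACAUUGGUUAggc

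Around miR-199a-5p, Mir199a-2 and Mir199a-1 shared 0 bases before the arm and 4 after it, an identical run of 27 bases. Around the 3p arm, Mir199b and Mir199a-2 shared 4 bases before and 1 after, and Mir199b and Mir199a-1 shared 3 before and 3 after, where the annotated Mir199a-1 precursor ends. A read of an exact listed miR-199 arm therefore matches more than 1 hairpin, while a read that starts a base earlier on the 5p side, or runs past these flanks, can be told apart. In windows of 20 bases, 17 of 51 in Mir199a-1, 16 of 91 in Mir199a-2 and 10 of 91 in Mir199b recurred in another precursor, against 0 of 91 in Mir214. The longest run that Mir214 shared with a miR-199 hairpin was 7 bases. Among 141767 GENCODE M21 transcripts, each miR-199a arm was found in the precursors named above and in Dnm3os and nowhere else, and both miR-214 arms in Mir214 and Dnm3os.

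**Figure D1:**
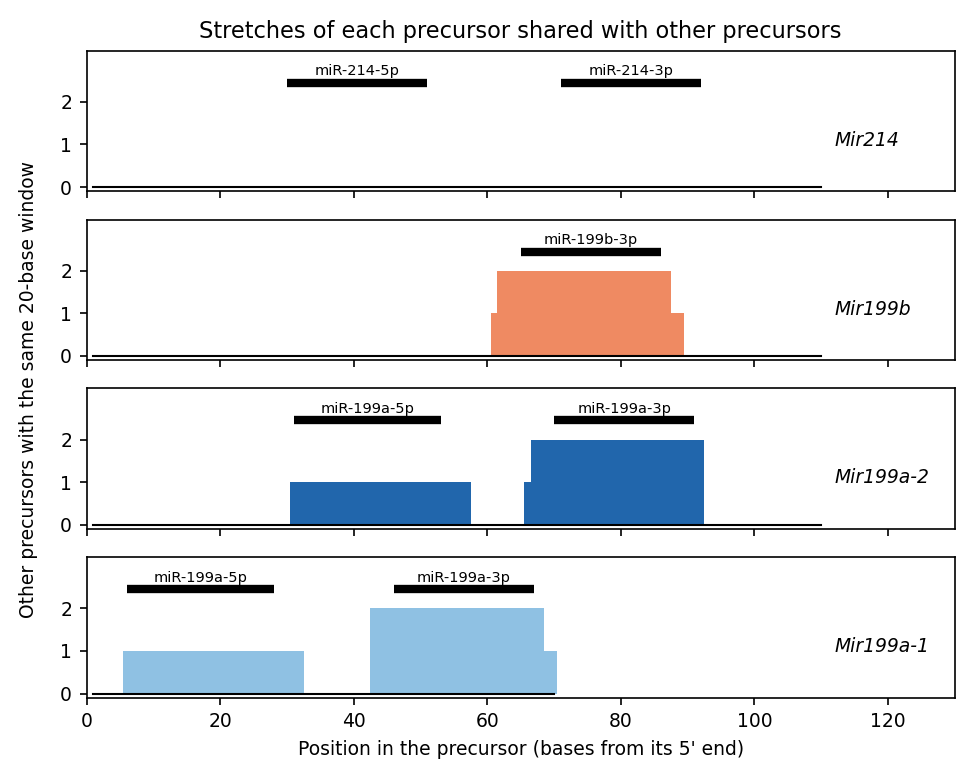
Position along each precursor (horizontal axis, bases from the 5′ end) against the number of other precursors that hold a 20-base window over that position, with the listed arms as black bars. Mir214 stays at 0 throughout, and the 3p arm of every miR-199 gene reaches 2.

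Both hairpins on chromosome 1 lie inside Dnm3os, 5444 bases apart on the plus strand (Mir199a-2, ENSMUSG00000070126.1; Mir214, ENSMUSG00000065516.1). In the transcripts Dnm3os-201 and Dnm3os-202, which have 1 exon each, both precursors are exonic. In the spliced Dnm3os-203, Dnm3os-204 and Dnm3os-206 an exon starts or ends within the Mir199a-2 precursor. An exon of Dnm3os-204 also ends within the Mir214 precursor. On the opposite strand both precursors fall in intron 14 of the 2 protein-coding Dnm3 transcripts with at least 20 exons. The other 2 genes repeat this layout. Mir199b (ENSMUSG00000092807.1, chromosome 2) lies opposite intron 14 or 15 in 8 such transcripts of Dnm1, and Mir199a-1 (ENSMUSG00000065547.1, chromosome 9) opposite intron 14 or 15 in 7 of Dnm2. Dynamins are the proteins that pinch vesicles off membranes, and each of these microRNA genes thus stands antisense to one of them.

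**Figure D2:**
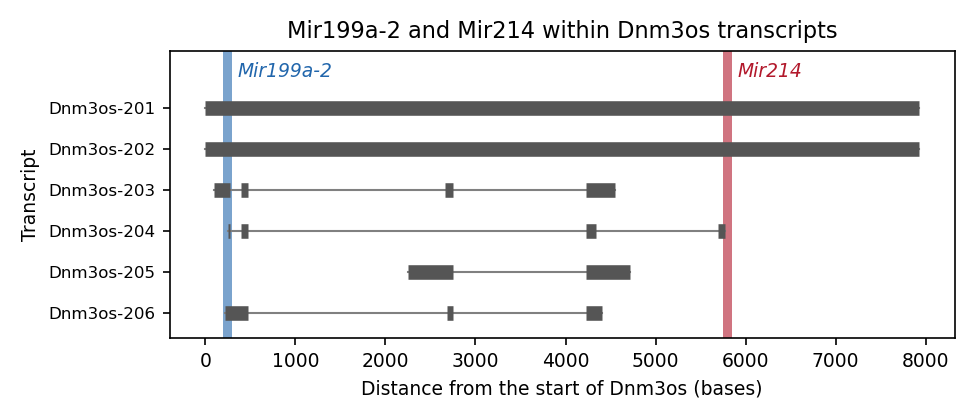
Distance from the start of Dnm3os in bases (horizontal axis) for its annotated transcripts (rows; thick parts are exons), with the Mir199a-2 and Mir214 precursors as coloured bands. The precursors are 5444 bases apart, and the single-exon transcripts span both.

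Mir214 was by far the most counted of the 4 genes. It had 27461 counts in replicate 1 and 33651 in replicate 2, which is 5129 and 5186 CPM, with counting intervals (exact Poisson, 95%) of 5068 to 5190 and 5130 to 5241 CPM. The mean was 5157 ± 40.3 CPM (SD, n = 2), rank 35 of the table and above 90.2% of the detected genes. Intervals here cover only the counting error of reads, and the reads carry no recorded molecular identifiers. The spread between the pools, 0.781% of the mean, was smaller than the width of those intervals.

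Mir199b followed with 4453 and 6356 counts in replicates 1 and 2, or 832 and 979 CPM. Its mean was 906 ± 105 CPM (SD, n = 2), rank 101. Replicate 2 was the higher library, and the 2 counting intervals (807 to 856 and 956 to 1004 CPM) did not overlap.

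Mir199a-2 had 410 and 458 counts, or 76.6 and 70.6 CPM, with a mean of 73.6 ± 4.24 CPM (SD, n = 2) and rank 203. Its intervals, 69.3 to 84.4 and 64.3 to 77.3 CPM, overlapped.

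Mir199a-1, the copy within Dnm2, was the lowest, with 20 and 42 counts, or 3.74 and 6.47 CPM. The mean was 5.10 ± 1.94 CPM (SD, n = 2), rank 310, above 13.2% of the detected genes. Both libraries stood above the worth of 3 counts, and the intervals of 2.28 to 5.77 and 4.66 to 8.75 CPM overlapped.

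**Figure D3:**
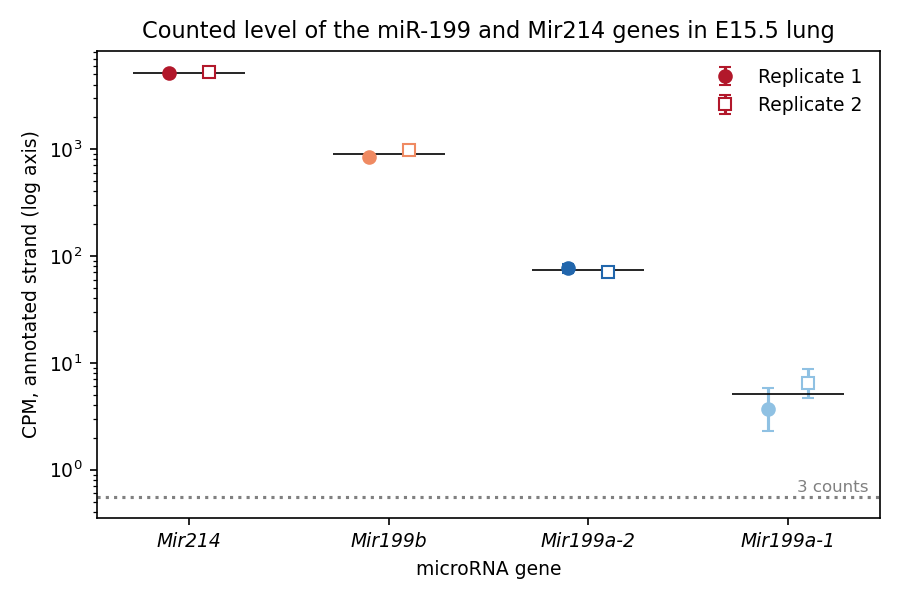
CPM on a log axis for each gene, replicate 1 as filled circles and replicate 2 as open squares, with 95% exact Poisson intervals (hidden by the symbols of the higher genes), the mean of both as a line and the worth of 3 counts dotted. The genes fall in 4 separate steps, from 5157 CPM for Mir214 to 5.10 CPM for Mir199a-1.

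All 4 genes reached at least 10 counts in both libraries and were called detected, where 18.1% of the 1973 genes did (357). Together they held 32344 counts in replicate 1 and 40507 in replicate 2, a share of 0.614% ± 0.0143 (SD, n = 2). Mir214 made up 84.0% ± 1.29 of that sum, Mir199b 14.7% ± 1.36, Mir199a-2 1.20% ± 0.0968 and Mir199a-1 0.0828% ± 0.0296. The order of the 4 was the same in both libraries, and no neighbours in it overlapped. Mir214 exceeded Mir199b by 6.17-fold in replicate 1 and 5.29-fold in replicate 2 (mean log2 ratio 2.51 ± 0.16). Mir199b exceeded Mir199a-2 by 10.9- and 13.9-fold (log2 3.62 ± 0.25), and Mir199a-2 exceeded Mir199a-1 by 20.5- and 10.9-fold (log2 3.90 ± 0.64). Each step was larger than its SD (n = 2). An exact 2-sided permutation test of 2 values against 2 gave p = 0.333 for each, the smallest it can give. Counts per 100 bases of precursor, which allow for the shorter Mir199a-1 (70 bases, against 110 for the others), were 4688, 823, 66.9 and 7.29 CPM for Mir214, Mir199b, Mir199a-2 and Mir199a-1. The lengths differ too little for this scaling to change the order.

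For the miR-199 genes the counts describe the reads that could be placed, not the mature arms. The 3 genes together had 4883 and 6856 counts in replicates 1 and 2, beside 3588198 and 4144809 reads that mapped to several places, 735 and 605 times as many, which stand on a summary line and were treated as uncounted. How many of those came from miR-199 arms was not measured. The levels and ranks of Mir199b, Mir199a-2 and Mir199a-1, and every share and fold that involves them, Mir214 over Mir199b included, are uncertain for that reason. Mir214 has no arm in another of the precursors or transcripts searched. The genome itself was not searched, so other places for its reads were not tested. Among the 916 genes with counts and listed arms, 831 have no listed arm in another of the 1005 RefSeq hairpins. Of these, 280 were detected, with a median of 191 CPM. In 50 genes some but not all listed arms recur, and 36 of these were detected, with a median of 42.8 CPM. In 35 genes every listed arm recurs elsewhere, and 8 of these were detected, with a median of 88.0 CPM. Mir199b was the highest of the 8, followed by Mirlet7a-1 at 328 CPM, with Mir199a-2 in place 5 and Mir199a-1 in place 7. RefSeq lists the 3p arm alone for Mir199b, so its distinguishable 5p stretch is not part of this grouping.

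Mir214 and Mir199a-2 come from the same host RNA, yet were counted at very different levels. Mir214 exceeded Mir199a-2 by 67.0-fold in replicate 1 and 73.5-fold in replicate 2 (mean log2 ratio 6.13 ± 0.09, SD, n = 2; exact permutation p = 0.333). Of 109 pairs of adjacent detected precursors on 1 strand, at most 10000 bases apart, the median fold of the higher over the lower was 9.13, and 16 pairs (14.7%) had a larger fold than this one. A comparison chosen after seeing the data took the 75 pairs in which no listed arm recurs in another precursor. Their median was 6.83-fold and 5 pairs (6.67%) had a larger fold. Arms that RefSeq does not list were not searched. Mir199a-2 and Mir214 are a pair with a recurring listed arm. Among the 21 other pairs with such an arm, also chosen after seeing the data, the median was 34.5-fold and 6 pairs (28.6%) had a larger fold. The remaining pairs are in neither set, because no arm was listed for at least 1 of their genes. Their folds ran from 1.02 (Mir467e and Mir467d) to 704 (Mir449b and Mir449a), and some of them exceeded this one. The Mir214 hairpin also had the lower predicted folding energy, -61.4 kcal/mol per 100 bases from RNAfold, against -38.6 for Mir199a-2, -38.3 for Mir199b and -41.3 for Mir199a-1. The median over the 1005 hairpins was -40.6, and 5% lay below -60.0. Whether folding or read placement has a part in the fold between the partners was not tested.

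Mir214 had 1 read on the opposite strand in each library, and Mir199b, Mir199a-2 and Mir199a-1 had 0 in both. Few genes of the tables had any, 78 of 1973 (3.95%) in either library. The miR-199 genes were thus like most genes, while Mir214 was among the few with any. That share is over all genes, of which 18.1% were detected. These libraries hold short inserts, so this count says nothing of the dynamin messenger RNAs.

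Among microRNAs known from other cell types, the 4 genes took less of the counts than the epithelial, smooth muscle and endothelial lists. They took more than the short blood and cardiac lists used here. Their 0.604% and 0.624% of the counts in replicates 1 and 2 stood against 3.19% and 3.15% for the 5 epithelial genes of the miR-200 family, a log2 ratio of -2.37 ± 0.05. Mir143 and Mir145a, of smooth muscle, took 7.76% and 8.31% (log2 ratio of the 4 genes over them, -3.71 ± 0.04), and the endothelial Mir126a 6.89% and 6.70% (log2 ratio -3.47 ± 0.06; SD, n = 2 for each). Every ratio lay below 0 in both libraries by more than its SD, with an exact permutation p = 0.333, the smallest possible. That SD does not cover reads that mapped to several places and went uncounted. Every listed miR-199 arm recurs in another precursor, while no listed miR-200 arm does. The 4 genes and the miR-200 family were thus not equally countable. How far such reads would move the ratios was not measured. Mir214 alone, which has no arm in another precursor searched, stood at a log2 ratio of -2.62 ± 0.03 against the miR-200 family. All 8 genes of these lists were detected, where 18.1% of the 1973 genes of the tables were. The 0.614% ± 0.0143 of the 4 genes stood against 0.0758% ± 0.0105 for the 2 erythroid genes, 0.0667% ± 0.00261 for the leukocyte gene Mir223 and 0.0977% ± 0.0147 for the 3 cardiac genes (SD, n = 2 for each), all 6 of which were detected. These blood and cardiac lists hold only Mir451a and Mir144, Mir223, and Mir208a, Mir208b and Mir499. Their sums depend on which genes were listed and on which reads could be placed. In whole lung, fewer cells of a type and less RNA per cell cannot be told apart, and a shared origin in mesenchyme was not measured.

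Among single genes, Mir214 was nearest in level to an epithelial one. Mir200b, next below it, had 5025 and 5189 CPM in replicates 1 and 2, so that its range took in that of Mir214, while Mirlet7b, next above at 5976 ± 296 CPM, and Mir379, next but one below at 4618 ± 319 CPM, did not overlap it. Mir199b lay between Mir135b (925 ± 64.0 CPM) and Mir200a (855 ± 14.6 CPM), which is part of the miR-200 family, and could not be ranked against either, since their ranges overlapped. Mir199a-2 lay between Mir493 (73.7 ± 5.42 CPM) and Mir345 (73.3 ± 3.36 CPM). Mir199a-1 lay between Mir7658 (5.11 ± 0.621 CPM) and Mir1968 (5.08 ± 0.211 CPM). Likeness here is the mean level over 2 libraries and nothing more.

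**Figure D4:**
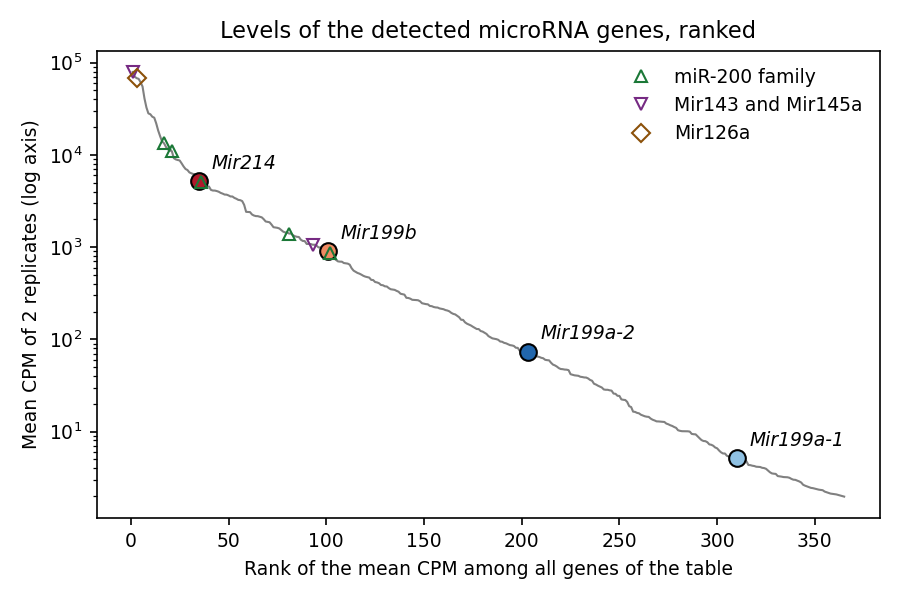
Mean CPM of both replicates (log axis) against rank for the 357 detected genes (grey line), with the 4 genes as filled circles and the miR-200 family, Mir143 and Mir145a, and Mir126a as open symbols. Mir214 at rank 35 lies next to Mir200b, and Mir199b at rank 101 next to Mir200a.

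Fibroblast-linked microRNAs outside these loci were counted at widely different levels. Mir21a, which is raised in activated fibroblasts, had 8982 and 8423 CPM in replicates 1 and 2, above Mir214 in both. Of the Mir29 genes, which repress collagens and other matrix genes, Mir29a had 140 and 103 CPM and Mir29c 49.3 and 45.9 CPM, while Mir29b-1 and Mir29b-2 had at most 6 counts in either library. These copies share the arm miR-29b-3p, so their counts are limited in the same way as those of the miR-199 genes. In all, 3 of these 5 genes were detected, where 18.1% of all genes were. The share of 0.614% ± 0.0143 for the miR-199 and Mir214 genes compares with 0.887% ± 0.0423 for these 5 (SD, n = 2).

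The 2 pools differed little in Mir214 and more in Mir199b. For replicate 2 over replicate 1 the log2 ratio of Mir214 was 0.02 (95% exact binomial interval -0.01 to 0.04), and 6.16% of detected genes had a smaller gap. Mir199b gave 0.24 (0.18 to 0.29), an interval that leaves out 0, and 69.5% of detected genes had a smaller gap. Among the 92 detected genes between 100 and 1000 CPM the median gap was 0.10 and the 90th percentile 0.26, so Mir199b lay near the upper end for its level. Mir199a-2 gave -0.12 (-0.31 to 0.08), within counting error, and Mir199a-1, from few counts, 0.79 (-0.01 to 1.64). The common biological coefficient of variation over the 357 genes of all levels was 12.7% by edgeR, which leaves out counting error. The SD of Mir199b, 11.5% of its mean, includes that error, so the 2 are unlike measures. The erythroid and cardiac lists were also higher in replicate 2, and the leukocyte gene Mir223 was lower (648 CPM, and 685 CPM in replicate 1). The erythroid share was 0.0833% in replicate 2 and 0.0684% in replicate 1, with 2 of 2 genes higher, and the cardiac share 0.108% and 0.0873%, with Mir208b and Mir499 higher and Mir208a lower. Their part in the Mir199b difference was not tested.

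**Figure D5:**
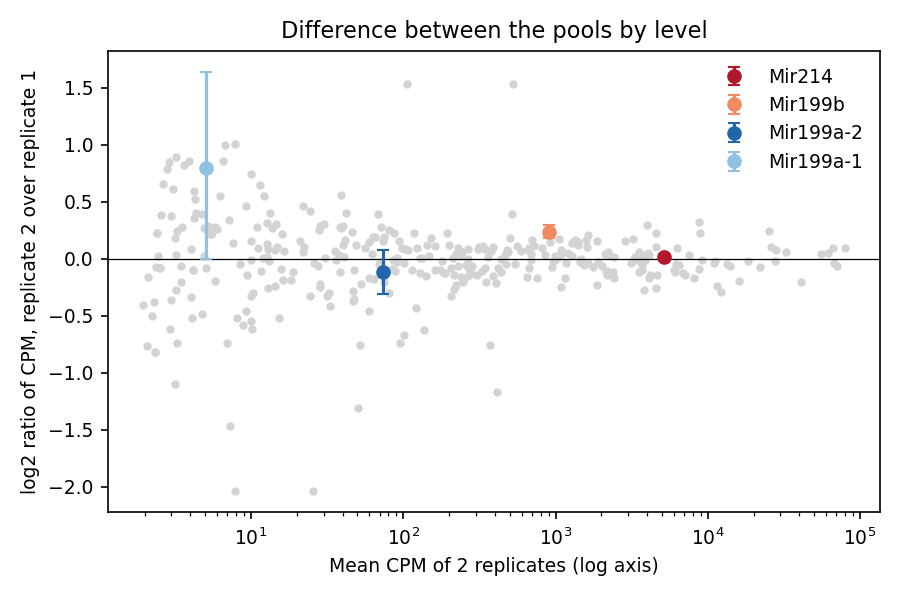
The log2 ratio of CPM, replicate 2 over replicate 1, against the mean CPM (log axis) for the detected genes (grey) and the 4 genes (coloured, with 95% exact binomial intervals). Mir214 sits at 0.02 and Mir199b at 0.24, and the interval of Mir199a-1 spans -0.01 to 1.64.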

How the data were processed

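The authors deposited raw read counts per microRNA gene, using assembly mm10 and annotation M4, per the deposited readme files. For the aligner and counter, a name or version is not given in the sources used here. Both tables have 3 count columns, read from their totals as reads without regard to strand, on the annotated strand and on the opposite strand. The annotated-strand column was used. Summary lines were kept out of the totals. They held 16.8% and 17.2% of reads as unmapped, 31.4% and 30.6% as mapped to several places, and 4.78% and 4.22% in no gene, in replicates 1 and 2.

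CPM was taken over all gene rows, with no length scaling, since a read is about 1 mature microRNA. Names and positions came from GENCODE M21 (1894 of 1973 identifiers matched), sequences from RefSeq. Named genes were the 4 genes, the 3 nearest by level on each side (nearest ones printed), seed mates, precursors within 10000 bases, and listed markers of other cell types. Members, lists and tests were chosen with earlier results of these data known. No conditions were compared and no model was fitted for differences. Genes and lists were compared by log2 ratios within each library. The exact permutation tests of 2 values against 2 did not use that pairing by library. The scripts were tested on simulated data. Tools were Python 3.11.15, numpy 2.4.6, pandas 2.3.3, scipy 1.17.1, matplotlib 3.10.9, R 4.3.3, edgeR 4.0.16 (TMM, coefficient of variation), DESeq2 1.42.0 (size factors as an alternative) and ViennaRNA 2.7.2.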

Additional observations from a re-analysis of the deposited data

How the results depend on the processing

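The 7 ratios of genes or lists that were rerun kept their direction with counts of both strands, without either replicate and, for the miR-200 comparison, with the miR-199 genes left out (-2.62). The 4 genes had at most 1 opposite-strand read in a library, so counts of both strands could hardly change the ratios among them. With one replicate left out, a ratio is simply that of the other library, so this rerun says nothing of stability. Mir199a-2 over Mir199a-1, rerun after seeing the data, ranged from 3.45 to 4.36 without one replicate. A level without one replicate of 2 lies within their SD by construction and says nothing of stability. Mir199a-1 then ranged from 3.74 to 6.47 CPM and Mir199b from 832 to 979 CPM. Detected genes numbered 4 at every minimum tried except 100 counts, where Mir199a-1 dropped out and 3 were left. Levels moved where the total changed by construction. With counts of both strands, Mir214 stood at 5008 CPM and the share of the 4 genes at 0.596%. With Mir143 left out of the total, Mir214 stood at 5601 CPM, Mir199a-2 at 79.9 CPM and the share at 0.667%. With reads mapped to several places and in no gene added to the total, Mir214, Mir199b, Mir199a-2 and Mir199a-1 stood at 2949, 518, 42.0 and 2.93 CPM and the share at 0.351%. Per 100 bases of precursor, added after seeing the data, the levels were those in the report (4688, 66.9 and 7.29 CPM moved). With TMM library sizes the log2 ratio of the replicates for Mir214 was 0.042, just past its counting interval. No pairing across conditions was possible because the series holds 1 group. The ratios of genes and lists are paired by library, but the permutation test took the 2 values of each side as independent. Depth limits Mir199a-1 most, at 20 and 42 counts.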

Other observations

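Next to Mir199b, on the same strand and 116 bases away, the tables list Gm23363 (ENSMUSG00000092765.2). It had 3 counts in replicate 1 and 22 in replicate 2, so it did not reach 10 counts in both. Mir199b, with 4453 and 6356 counts, was also higher in replicate 2. Apart from this gene and the pair within Dnm3os, no other microRNA gene of the tables lies within 10000 bases of a miR-199 gene or Mir214.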
